A study of Homo sapiens with 9 samples.

Results

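The transcripts of 10 genes for non-motor proteins that bind, cross-link, sever or help to fold microtubules and their tubulin subunits were followed in KHM-5M cells, a thyroid cancer cell line. The genes, STMN1, MAP4, MAP1B, MAPRE1, CKAP5, CLASP1, PRC1, KATNBL1, TTC5 and TBCA, were named by their function, with earlier results of these data known, and matched by symbol. They make up 10 of the 58735 genes of the count table, of which 19951 are protein-coding. The question of the study was how YK-4-279, a small molecule described as an inhibitor of ETS transcription factors, acts on thyroid cancer cells. Cells were kept for 24 h with DMSO, the solvent, with 0.3 µM or with 1 µM of YK-4-279, with 3 samples in each group, and poly-A RNA was sequenced. All 9 samples came from this single cell line, and neither animals nor other tumours were included.

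Microtubules are hollow filaments of alpha- and beta-tubulin dimers that grow and shrink mainly at their plus ends, form the mitotic spindle and serve as tracks for transport. Proteins bound along the filament stabilise it, proteins at the growing end set how fast it polymerises, severing enzymes cut it, and chaperones assemble the dimers. Cells also match tubulin synthesis to the pool of free dimers, because TTC5 recognises tubulin chains as they leave the ribosome and brings about the decay of their mRNAs.

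The total count per sample ranged from 16903251 to 18238884. Of the thyroid follicular markers, PAX8 was read at 160 to 207 CPM (counts scaled by library size), while FOXE1 had 7 to 34 counts and TG, TSHR, SLC5A5 and NKX2-1 had at most 10. KRT8, KRT18, VIM, FN1 and CDH2 were abundant and CDH1 had at most 5 counts. Of the leukocyte markers, PTPRC and CD3E had 1 count or fewer, and CD14 stood at 0.446 to 1.22 CPM with DMSO, 0.461 to 1.17 with 0.3 µM and 1.73 to 2.02 with 1 µM. The part of this difference in CD14 in the results below was not tested.

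At 1 µM, MAPRE1 rose and PRC1, KATNBL1 and CKAP5 fell relative to DMSO, while the other 6 genes did not pass the test. PRC1 moved furthest and fell by 54.5%, and KATNBL1 fell by 39.7%. The value of PRC1 is uncertain, because its exons are shared with another gene as described below. CKAP5 fell by 16.9% and MAPRE1 rose by 22.9%. The test was edgeR's quasi-likelihood test on the counts, with Benjamini-Hochberg adjustment over all genes tested and an adjusted p under 0.05 as the call. With it, 4 of the 10 genes were called (40.0%), against a background of 17.6% of all 15617 genes tested, 1 of them higher (background 7.67%) and 3 lower (background 9.95%). With a change of over 1.5-fold required as well, PRC1 and KATNBL1 remained, against a background of 5.51%. The 1 µM samples lay wholly above or below the DMSO samples for 5 of the 10 genes, which include MAP4, against 36.6% of all genes. The 10 genes were chosen with earlier results of these data known. Their shares beside those of all genes, here and below, are therefore a description and no independent evidence. In bulk RNA, fewer cells of a kind and less RNA per cell cannot be told apart.

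**Figure D1:**
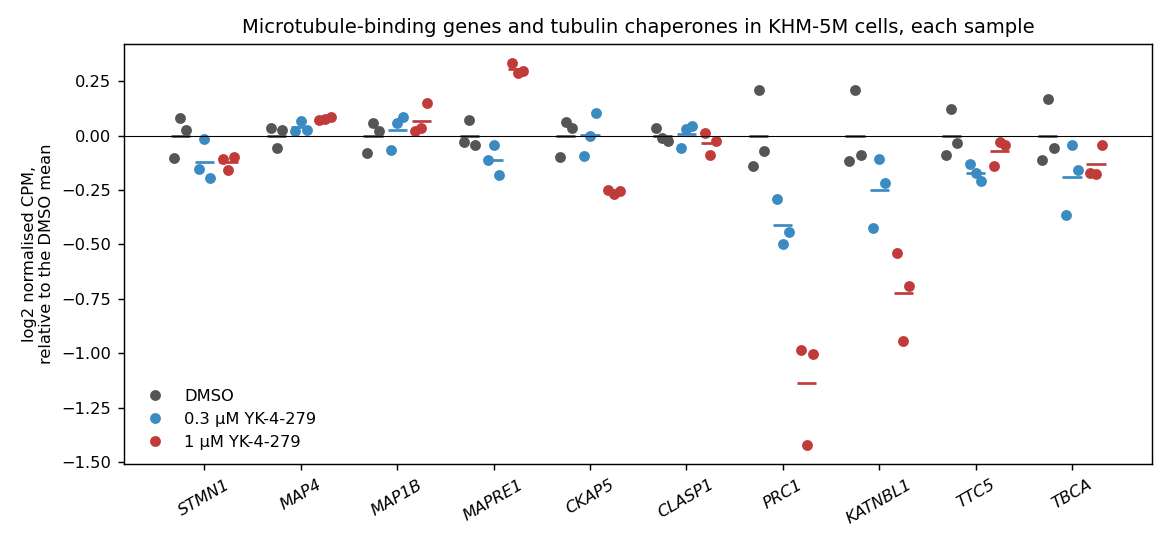
Normalised CPM of each sample on a log2 scale, relative to the mean of the 3 DMSO samples (y axis), for the 10 genes (x axis). Each point is a sample, coloured by group, and short lines are group means. For PRC1 the 1 µM samples lie lowest, and for MAPRE1 the 1 µM samples lie above all others.

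Levels differed widely among the 10 genes. FPKM divides the count by gene length and library size, and the length is near that of all annotated exons of a gene. For PRC1 this was 5525 bases, against 3072 in its main transcript, so the order of genes also depends on the annotation. In FPKM, STMN1 was the most abundant with 105 ± 6.70 (SD, n = 3) in DMSO, above 97.9% of the genes tested. MAPRE1 followed at 91.9 ± 3.87 and CKAP5 at 65.0 ± 3.77. MAP1B at 45.6 ± 2.28, TBCA at 44.7 ± 4.70 and MAP4 at 44.5 ± 1.64 came next, and within these 3 genes neighbours in the order overlapped. CLASP1 at 7.82 ± 0.166 and KATNBL1 at 5.25 ± 0.669 lay in the middle of all genes, above 65.5% and 55.3% of them. TTC5 at 1.91 ± 0.144 and PRC1 at 1.29 ± 0.168 were lowest, above 33.1% and 25.9% of the genes tested. Apart from MAP1B, TBCA and MAP4, the DMSO samples of each gene lay wholly above those of the next gene in this order. The rank of PRC1 is uncertain, because its exons are shared with another gene as described below.

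**Figure D2:**
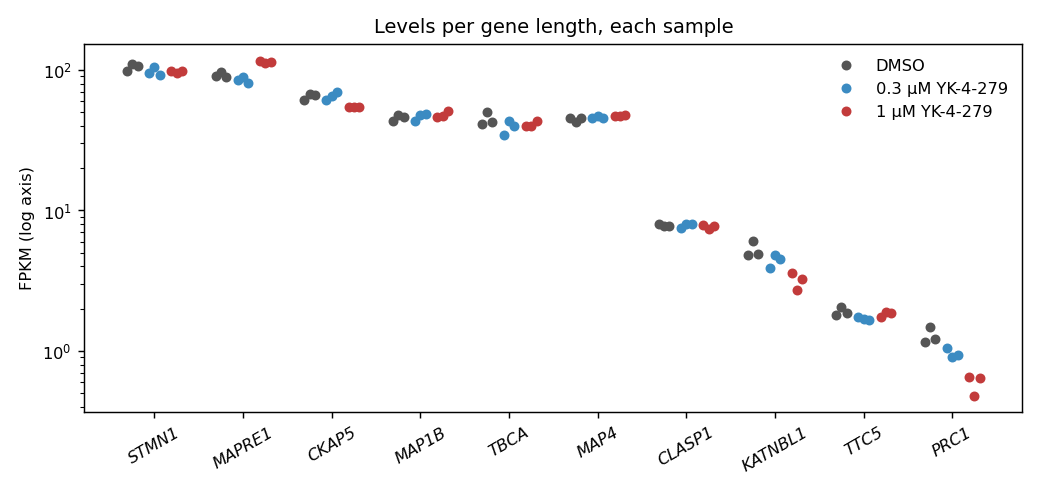
Deposited FPKM of each sample on a log axis for the 10 genes, ordered by their DMSO mean. Points are samples, coloured by group. STMN1, MAPRE1, CKAP5, MAP1B, TBCA and MAP4 lie at 34.6 FPKM or above in every sample and TTC5 and PRC1 lie near 1 to 2 FPKM or below.

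PRC1 encodes a protein that cross-links antiparallel microtubules at the midzone of the anaphase spindle and is needed for cytokinesis. The gene (ENSG00000198901) lies on the minus strand of chromosome 15 at 90966038 to 90995629 (GRCh38). It stood at 6.46, 8.24 and 6.79 normalised CPM in the DMSO samples, at 5.81, 5.05 and 5.25 with 0.3 µM and at 3.60, 2.66 and 3.55 with 1 µM. None of these 3 groups overlapped with another, and the DMSO samples were highest and the 1 µM samples lowest. The raw counts behind these values were small, 111 to 148 with DMSO and 46 to 66 with 1 µM. The log2 fold change at 1 µM against DMSO was -1.14 (SE 0.18, 95% interval -1.52 to -0.75), with an adjusted p of 0.00079 by edgeR. Against 0.3 µM, the log2 fold change at 1 µM was -0.71 (SE 0.19), with an adjusted p of 0.0209 by edgeR.

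The count of PRC1 is uncertain, since a readthrough gene, AC068831.7 (ENSG00000284946), runs over it on the same strand. In the GENCODE annotation, 3181 of the 5523 exon bases of PRC1 (57.6%) belong to both genes, and of its main transcript (MANE Select) 2716 of 3072 bases (88.4%) are shared and 356 are not. How reads in shared exons were assigned is not given in the sources used here. AC068831.7 was read at 424, 448 and 417 counts with DMSO, 358, 375 and 376 with 0.3 µM and 254, 212 and 241 with 1 µM. It thus held more reads than PRC1 in every sample, and its groups did not overlap either. Its log2 fold change at 1 µM was -0.89 (SE 0.09), with an adjusted p of 3.8e-05 by edgeR. With the counts of both genes summed, the log2 fold change was -0.94 (SE 0.09, adjusted p = 1.9e-05 by edgeR) at 1 µM and -0.28 (adjusted p = 0.995) at 0.3 µM.

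On the opposite strand, PRC1-AS1 covers 34.3% of the exon bases of PRC1, and whether strand was used in counting is not given in the sources used here. It was read at 28, 39 and 45 counts with DMSO, 30, 26 and 54 with 0.3 µM and 16, 8 and 15 with 1 µM. All 1 µM samples were below all DMSO samples, and the log2 fold change was -1.53 (SE 0.34), with an adjusted p of 0.00708 by edgeR. PRC1, the readthrough gene and the antisense gene were therefore all lower at 1 µM, and their separate parts cannot be told apart where the exons overlap.

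**Figure D3:**
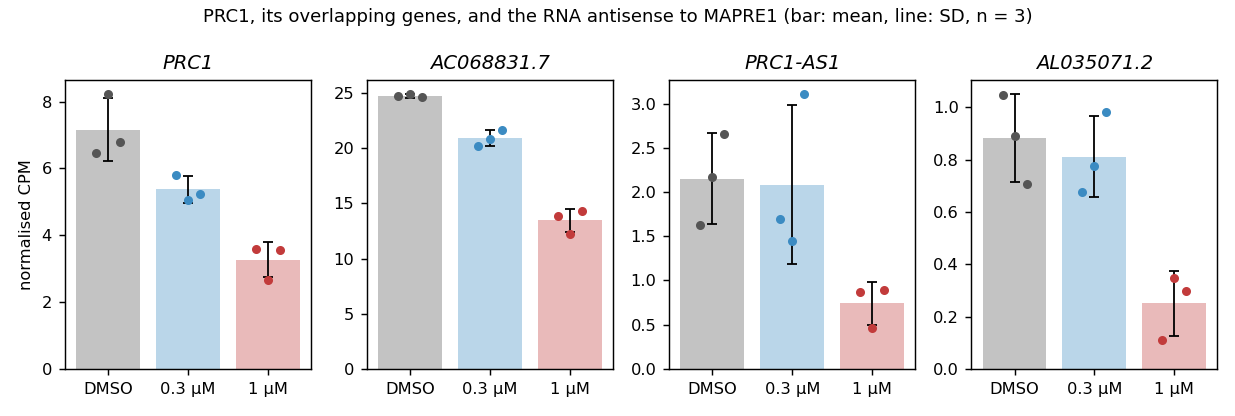
Normalised CPM (y axes from 0, each panel with its own scale) of PRC1, of AC068831.7 and PRC1-AS1, which overlap it, and of AL035071.2, which lies antisense to MAPRE1. Bars are means, lines the SD of 3 samples and points the samples. In all 4 panels the 1 µM samples lie below the DMSO samples.

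KATNBL1 encodes a protein that binds the catalytic subunits of the microtubule-severing enzyme katanin. The gene (ENSG00000134152) is on the minus strand of chromosome 15 at 34140674 to 34210096 (GRCh38). Its level was 35.5, 44.4 and 36.2 normalised CPM with DMSO, 28.7, 35.7 and 33.0 with 0.3 µM and 26.5, 19.99 and 23.9 with 1 µM. The 1 µM samples were below all samples of both other groups, whereas the second of the 0.3 µM samples lay within the range of DMSO. At 1 µM the log2 fold change against DMSO was -0.73 (SE 0.11, 95% interval -0.97 to -0.49), with an adjusted p of 0.000569 by edgeR. Against 0.3 µM it was -0.46 (SE 0.11, adjusted p = 0.0105 by edgeR). KATNBL1 is among the genes that the study chose to display from these same samples, so its direction is no independent evidence.

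CKAP5 encodes chTOG, a polymerase that adds tubulin at growing plus ends and is needed for spindle assembly. The gene (ENSG00000175216) is on the minus strand of chromosome 11 at 46743048 to 46846308 (GRCh38). It was read at 523, 584 and 573 normalised CPM with DMSO, 524, 558 and 601 with 0.3 µM and 470.1, 464 and 468 with 1 µM. The 1 µM samples lay close together and below all 6 others, while DMSO and 0.3 µM overlapped over most of their range. The log2 fold change at 1 µM was -0.27 (SE 0.05, 95% interval -0.38 to -0.15) against DMSO, with an adjusted p of 0.00438 by edgeR. It was -0.26 (SE 0.06, adjusted p = 0.00866 by edgeR) against 0.3 µM.

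MAPRE1 encodes EB1, which tracks growing plus ends on its own and recruits most other plus-end proteins. The gene (ENSG00000101367) is on the plus strand of chromosome 20 at 32819893 to 32850405 (GRCh38). Its level was 238, 255 and 236 normalised CPM with DMSO, 225, 236 and 214 with 0.3 µM and 306, 296 and 299 with 1 µM. All 1 µM samples were above all others, and 2 of the 0.3 µM samples were below all DMSO samples. The log2 fold change was 0.30 (SE 0.05, 95% interval 0.18 to 0.41) at 1 µM against DMSO, with an adjusted p of 0.00207 by edgeR. Against 0.3 µM it was 0.42 (SE 0.06, adjusted p = 0.000237 by edgeR). At 0.3 µM the value was -0.11 (SE 0.07) against DMSO, with an adjusted p of 0.995 by edgeR.

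A short RNA gene antisense to MAPRE1, AL035071.2, moved the other way. It was read at 18, 16 and 12 counts with DMSO, 12, 14 and 17 with 0.3 µM and 2, 6 and 5 with 1 µM, so that all 1 µM samples were below all others. Its log2 fold change at 1 µM was -1.81 (SE 0.48), with an adjusted p of 0.0175 by edgeR. The pair shares no exon bases in the GENCODE annotation.

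The stretches before the RefSeq transcription starts are shown for 3 of the 4 genes that changed, since PRC1 and CKAP5 hold the cell cycle genes homology region (CHR) or its reverse there and MAPRE1 holds a CCAAT box. RefSeq windows of 300 bases, 250 before and 50 after each start on GRCh38.p14, were matched for all 10 genes, 3 of which have more than 1 window. Capitals mark the motifs searched, which were the CHR (TTTGAA, reverse TTCAAA), the CCAAT box (CCAAT, reverse ATTGG) and an ETS core (CCGGAA, reverse TTCCGG), on both strands. Only 30 bases are given for PRC1, because its window lies inside a longer annotated transcript.
PRC1, chr15:90994541-90994570, minus strand, bases -35 to -6: cgccccgtggcgcggTTTGAAattttgcgg
CKAP5, chr11:46846309-46846400, minus strand, bases -120 to -29: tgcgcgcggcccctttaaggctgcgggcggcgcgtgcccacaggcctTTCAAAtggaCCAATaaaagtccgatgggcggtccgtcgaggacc
MAPRE1, chr20:32819734-32819833, plus strand, bases -220 to -121: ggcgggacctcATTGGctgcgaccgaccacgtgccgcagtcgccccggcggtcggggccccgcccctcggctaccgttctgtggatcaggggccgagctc

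PRC1 had the CHR at -20 and a CCAAT box at -53. CKAP5 had the reversed CHR at -73 and at 18, and CCAAT boxes at -63 and at -30, the latter running past the end of the stretch shown. MAPRE1 had the CHR at 10 and the reversed CCAAT box at -209, and KATNBL1 had the CHR at 33 and no CCAAT box. Over all 10 genes, 7 held the CHR in a window, 6 the CCAAT box and none, 0 of 10, the ETS core. Of 35116 RefSeq windows of this length, 15.2% held the CHR letters, 34.6% the CCAAT box and 17.2% the ETS core. A match is a run of letters only, and the 3 genes with several windows had more chances to hold one.

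The remaining plus-end protein, CLASP1, which favours regrowth of shrinking microtubules, stood at 89.3, 86.4 and 85.8 normalised CPM with DMSO, 83.7, 89.0 and 90.0 with 0.3 µM and 87.9, 81.9 and 85.7 with 1 µM. The groups overlapped throughout. At 1 µM the log2 fold change was -0.04 (SE 0.06, 95% interval -0.17 to 0.09, adjusted p = 0.684 by edgeR).

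MAP4, which binds along microtubules in most cell types and stabilises them, was read at 688, 644 and 682 normalised CPM with DMSO, 681, 704 and 683 with 0.3 µM and 705, 707 and 713 with 1 µM. The 1 µM samples were all above the others, by a small margin. The log2 fold change at 1 µM was 0.07 (SE 0.05, 95% interval -0.04 to 0.18), which did not pass the test, with an adjusted p of 0.377 by edgeR.

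MAP1B, a lattice-binding protein best known from growing axons, was abundant in these cells. It stood at 549, 606 and 589.9 normalised CPM with DMSO, 554, 605 and 616 with 0.3 µM and 589, 596 and 644 with 1 µM. The groups overlapped, and the log2 fold change at 1 µM was 0.06 (SE 0.06, 95% interval -0.06 to 0.18, adjusted p = 0.507 by edgeR).

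STMN1, stathmin, holds free tubulin dimers and promotes the shrinking of microtubules. Its values were 619, 702 and 676 normalised CPM with DMSO, 597, 658 and 581 with 0.3 µM and 617, 595 and 621 with 1 µM. In each treated group 2 of 3 samples were below all DMSO samples, and the treated groups overlapped with each other. At 1 µM the log2 fold change was -0.13 (SE 0.06, 95% interval -0.25 to -0.01), with an adjusted p of 0.126 by edgeR. STMN1 was the only one of the 6 uncalled genes that passed at 1 µM under an alternative, with an adjusted p of 0.0453 without DMSO replicate 1 and of 0.0261 with the trend of counts with GC content removed.

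TBCA, tubulin cofactor A, binds beta-tubulin on the folding pathway. It was read at 127, 155 and 132 normalised CPM with DMSO, 107, 134 and 123 with 0.3 µM and 122, 122 and 134 with 1 µM. The groups overlapped, with DMSO replicate 2 the highest of all samples. The log2 fold change was -0.14 (SE 0.07, 95% interval -0.30 to 0.02, adjusted p = 0.212 by edgeR) at 1 µM and -0.19 (SE 0.09, adjusted p = 0.995 by edgeR) at 0.3 µM.

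TTC5, the reader of nascent tubulin chains, had 17.6, 20.3 and 18.2 normalised CPM with DMSO, 17.0, 16.6 and 16.1 with 0.3 µM and 17.0, 18.3 and 18.1 with 1 µM. The 0.3 µM samples were all below the DMSO samples, while the 1 µM samples overlapped with DMSO. At 1 µM the log2 fold change was -0.08 (SE 0.10, 95% interval -0.28 to 0.12), with an adjusted p of 0.605 by edgeR. At 0.3 µM it was -0.18 (SE 0.11), with an adjusted p of 0.995 by edgeR. A long RNA gene on the same strand, AL356019.2, shares 7.7% of the exon bases of TTC5 and had 14 to 26 counts in all samples.

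DMSO replicate 2 was the highest DMSO sample for 8 of the 10 genes, and the share over all genes is not given here. Over all genes with enough counts, it differed more from replicates 1 and 3 than they did from each other. The chi-square statistic over degrees of freedom was 10.7 and 6.86, against 3.2. Without DMSO replicate 2, PRC1, KATNBL1, CKAP5 and MAPRE1 were still called at 1 µM, with log2 fold changes of -1.02, -0.61, -0.23 and 0.34.

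At 0.3 µM none of the 10 genes passed the adjusted test with edgeR, DESeq2 or limma, and the same edgeR test called 0.0% of the 15762 genes. DESeq2 called 1 gene in all and limma 0. At an unadjusted p under 0.05, 2 of the 10 genes passed, against a background of 3.77% of all genes. They were PRC1, with a log2 fold change of -0.42 (SE 0.16, 95% interval -0.76 to -0.08), and KATNBL1, with -0.25 (SE 0.11, 95% interval -0.48 to -0.03), both with an adjusted p of 0.995 by edgeR. For PRC1 and TTC5, 2 of the 10 genes, all 0.3 µM samples were below all DMSO samples, against 8.36% of all genes that did not overlap in either direction.

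Between the doses, MAPRE1 was higher and CKAP5, PRC1 and KATNBL1 were lower at 1 µM than at 0.3 µM, and the other 6 genes did not pass the test. These 4 of 10 genes stand against a background of 12.6% of 15583 genes tested, with 1 higher (background 5.85%) and 3 lower (background 6.75%). The groups did not overlap for 5 of the 10 genes, MAP4 included, against 31.5% of all genes. The comparison shares its 1 µM samples with that against DMSO, so the same 4 names are not a second, independent result. The calls of PRC1 and KATNBL1 between the doses were lost without some single samples, with log2 fold changes of the same sign. Without 1 µM replicate 2 neither passed, with log2 fold changes of -0.58 and -0.36 and adjusted p of 0.0953 and 0.0638 by edgeR. PRC1 did not pass without 0.3 µM replicate 1 (-0.65, adjusted p = 0.0712 by edgeR), and KATNBL1 did not without 0.3 µM replicate 2 (-0.39, adjusted p = 0.0645 by edgeR).

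**Figure D4:**
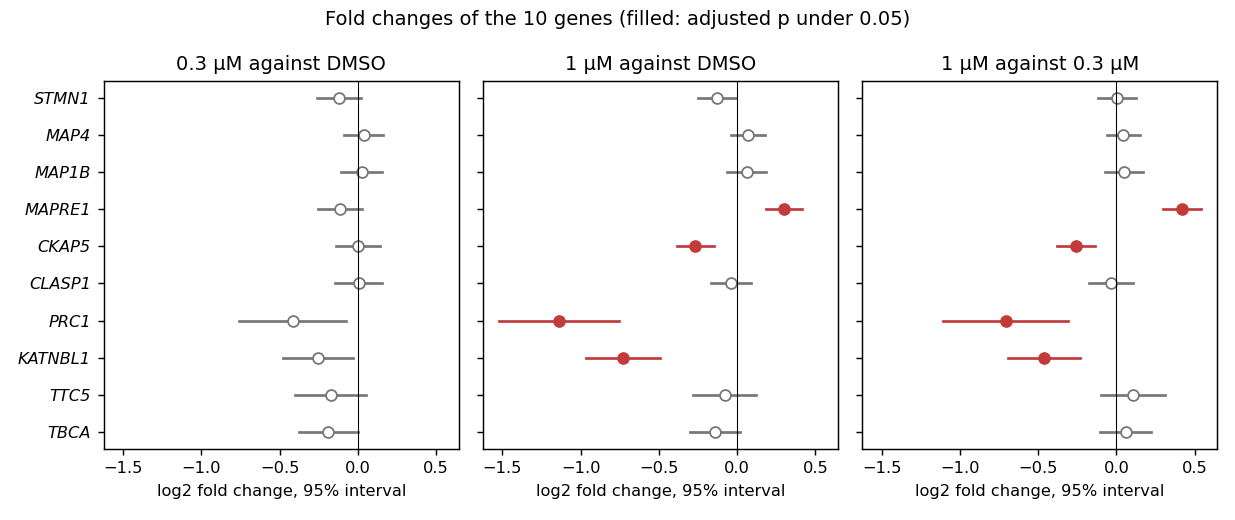
Log2 fold changes (x axis, same scale in each panel) of the 10 genes in the 3 comparisons with their 95% intervals by edgeR. Filled red points passed an adjusted p under 0.05. At 0.3 µM no gene passed, and at 1 µM the same 4 genes passed against DMSO and against 0.3 µM.

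Close relatives of the 10 genes were read in the same fit of 1 µM against DMSO, and of the 16 reported here 14 could be tested and TBCC alone passed. MAPRE1 was far more abundant than MAPRE2 and MAPRE3, with which it shares its plus-end function: in FPKM, MAPRE2 had 5.28 to 6.10 and MAPRE3 3.75 to 4.51 in DMSO. Their log2 fold changes were 0.11 (SE 0.08) and -0.19 (SE 0.11), with adjusted p of 0.356 and 0.251 by edgeR. CLASP2, the paralog of CLASP1, had a value of 0.20 (SE 0.07), with all 1 µM samples above all DMSO samples and an adjusted p of 0.0505 by edgeR, just outside the threshold. Against 0.3 µM it was called, with 0.25 (SE 0.08, adjusted p = 0.0383 by edgeR).

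Of the other stathmins, only STMN3 had enough counts to be tested, with a log2 fold change of 0.13 (SE 0.07, adjusted p = 0.229 by edgeR), while STMN2 had at most 1 count and STMN4 had 0 in every sample, which allows up to 0.164 to 0.177 CPM. MAP1A had 0.04 (SE 0.08) and MAP1S 0.28 (SE 0.13), with adjusted p of 0.756 and 0.153 by edgeR. Of the catalytic katanin genes, KATNA1 had 0.08 (SE 0.11) and KATNAL1 -0.07 (SE 0.07), with adjusted p of 0.66 and 0.553 by edgeR. SCAPER and CNOT11, which act with TTC5 in the decay of tubulin mRNA, had -0.10 (SE 0.09) and 0.08 (SE 0.07), with adjusted p of 0.448 and 0.43 by edgeR.

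TBCC, the cofactor that completes the release of folded tubulin dimers, rose at 1 µM. It was read at 17.5, 16.2 and 19.9 normalised CPM with DMSO, 17.5, 20.04 and 16.3 with 0.3 µM and 25.9, 24.9 and 25.2 with 1 µM, so that the 1 µM samples were above all others. The log2 fold change was 0.50 (SE 0.09), with an adjusted p of 0.00268 by edgeR. The other tubulin cofactors gave 0.07 for TBCB, -0.12 for TBCD and 0.07 for TBCE, with adjusted p of 0.252 to 0.70 by edgeR. TBCE shares exons with a readthrough gene on its strand, so its count is uncertain.

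Across 7 lists of other microtubule genes, 14 of 95 genes tested were called at 1 µM, 5 higher and 9 lower, or 14.7%, which is near the background of all genes. Their median log2 fold change was -0.004, beside -0.106 for the 10 genes and -0.008 for all genes. The count moved between 6 and 18 when 1 sample was left out, as given in the closing section. No share over all genes is given for those fits.

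Of 20 tubulin folding genes tested, 4 were called (20%, beside 17.6% of all genes) and these 4 were higher (7.67% of all genes were called higher), with TBCC and the chaperonin subunits CCT2 (0.20), TCP1 (0.19) and CCT5 (0.17) at adjusted p of 0.00268 to 0.0421 by edgeR. Of 17 genes tested for spindle proteins and subunits of augmin, which takes part in branching nucleation of microtubules, 4 were called (23.5%) and these 4 were lower (9.95% of all genes were called lower), with NUSAP1 (-0.51), HAUS3 (-0.47), HAUS5 (-0.40) and NUMA1 (-0.23) at adjusted p of 0.00204 to 0.0109 by edgeR.

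The other lists held single or mixed calls, at shares of 18.8% for lattice proteins and stathmins, 5.88% for end-binding, 12.5% for severing and 6.67% for modifying genes, beside 17.6% of all genes. Of 16 tested lattice proteins and stathmins, 3 were called, with MAP2 higher (0.67, adjusted p = 0.0489 by edgeR), and DCLK2 (-0.89, adjusted p = 0.0445) and EML2 (-0.21, adjusted p = 0.0352) lower. MAP2 and DCLK2 had fewer than 80 counts in every sample. Of 17 proteins of the plus or minus end, 1 was called, CLIP4 (-0.30, adjusted p = 0.0204 by edgeR). Of 8 severing genes, FIGN alone was called (-0.56, adjusted p = 0.000864 by edgeR), and of 15 tubulin-modifying genes ATAT1 alone, the acetyltransferase of alpha-tubulin (-0.35, adjusted p = 0.0328 by edgeR). Neither of the 2 genes of tubulin mRNA decay was called.

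**Figure D5:**
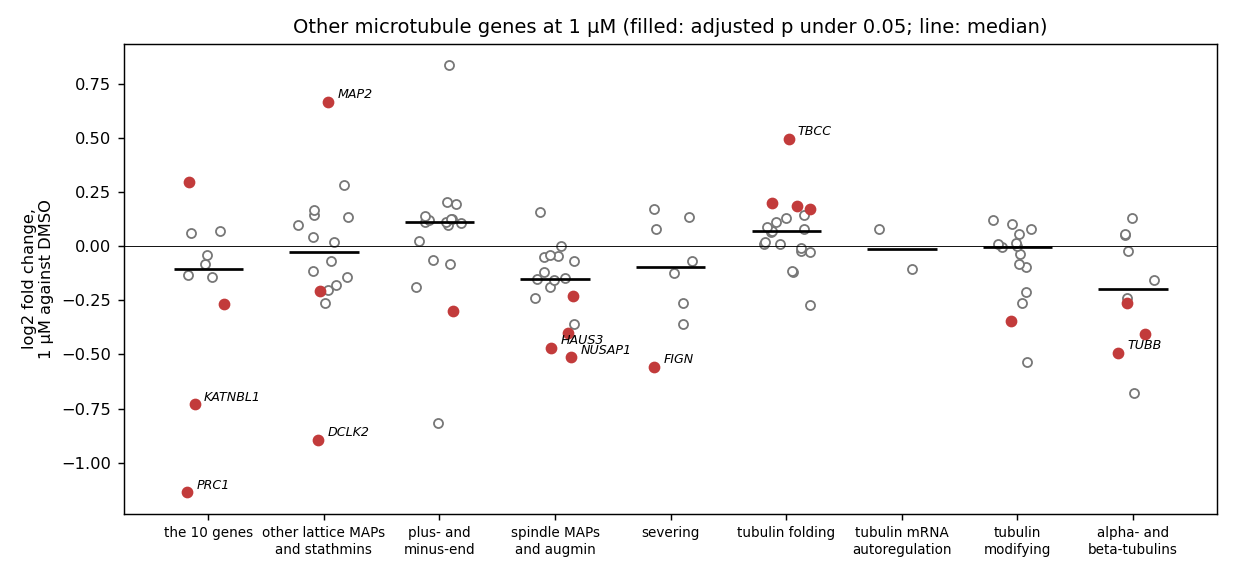
Log2 fold change at 1 µM against DMSO (y axis) for the 10 genes, 7 lists of other microtubule genes and the tubulins (x axis). Points are genes, filled red where the adjusted p by edgeR was under 0.05, and lines are list medians. Called folding genes lie above 0 and called spindle genes below 0.

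Of the tubulins that these proteins bind, 3 of 10 genes were called (30%, beside 17.6% of all genes) and these 3 were lower (9.95% of all genes), with TUBB at -0.49 (SE 0.05), TUBA1B at -0.41 (SE 0.06) and TUBA1C at -0.26 (SE 0.06) and adjusted p of 1.9e-05 to 0.00667 by edgeR. Tubulin genes resemble each other closely, so that their counts may share reads.

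Of 11 genes of the G2 and M phases, in which PRC1 and CKAP5 act, 6 were called (54.5%, beside 17.6% of all genes), 4 lower and 2 higher (9.95% and 7.67% of all genes). CDK1 had the largest fall (-0.68, adjusted p = 4.01e-05 by edgeR) and AURKA the largest rise (0.23, adjusted p = 0.00876 by edgeR). The part of a shifted cell cycle in the values of PRC1 and CKAP5 was not tested.

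Among 9418 protein-coding genes with a mean of at least 10 CPM, the gene most like MAPRE1 over the 9 samples was ELF1, an ETS family transcription factor, with a Pearson r of 0.988 of log2 CPM. UBE2N followed with 0.983 and NSMCE3 with 0.982. For PRC1 the closest were HSD17B7 with 0.984, PYROXD2 with 0.979 and ARGLU1 with 0.977. These genes were picked as the highest of 9418, and the 9 samples fall into 3 treatment groups that all of them share, so the values are a description.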

How the data were processed

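Poly-A RNA of KHM-5M cells was sequenced after 24 h with DMSO, 0.3 µM or 1 µM YK-4-279, 3 samples each. Whole-number counts per gene, not normalized, were deposited. FPKM values that the authors made from these counts with gene length and library size stand beside them. The study names Hisat2 on GRCh38 and HTseq, whereas the submitters' processing notes list HISAT2 2.0.5, featureCounts 1.5.0-p3 and DESeq2 1.20.0. The study describes fewer replicates per condition, which it calls biological, than the 3 samples the labels give. It also describes a stranded kit where the labels name one without that word. The deposited fold changes and p-values of the authors' comparisons were not used.

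From the counts, edgeR 4.0.16 (R 4.3.3) was run on the 2 groups compared, with filterByExpr at a minimum count of 10, TMM scaling, glmQLFit and glmQLFTest, and Benjamini-Hochberg adjustment over all genes tested. Normalised CPM used TMM factors over all 9 samples. Alternatives were DESeq2 1.42.0, limma 3.58.1 on log2(FPKM + 0.5), RLE factors, a minimum count of 1, a fit of all samples, a replicate block, trends with length or GC removed (GC known for 99.5% of genes), other thresholds, PRC1 summed with AC068831.7, and each sample left out. The edgeR, DESeq2, limma, block and length fits were tested on simulated data first. Python 3.11.15, pandas 2.3.3, numpy 2.4.6 and matplotlib 3.10.9 made the tables and figures.

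The 10 genes and all lists were chosen with earlier results of these data known. Named beside the 10 genes were, from each list, called genes of over 1.5-fold and otherwise the called genes with the largest rise and fall, close relatives, the 3 genes most like the member with the largest rise or fall, and overlapping genes (some are not reported here); the other called genes of the lattice, folding, spindle and tubulin lists were named after their values were seen. Chromosomal positions are those of the deposited table on GRCh38, and exon overlaps come from GENCODE on GRCh38. Sequences come from RefSeq. The study calls its replicates biological, but no source used here says that samples of a group came from separate cultures. The p-values therefore measure only the spread between these samples, which may be technical. In chi-square tests, replicates of a group differed more than counting error allows (statistic over degrees of freedom 3.2 to 10.7). Such a test cannot tell separate cultures from separate preparations of the same culture. A single value compared as 3 against 3 samples by exact permutation cannot reach a two-sided p below 0.1, so no such test was used.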

Additional observations from a re-analysis of the deposited data

How the results depend on the processing

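At 1 µM against DMSO, PRC1, KATNBL1, CKAP5 and MAPRE1 were called under each alternative test and normalization run, under the block on replicate number and with any 1 sample left out. The number called was 2 with over 1.5-fold required as well, and 4 to 5 over the fits that left out 1 sample. At 0.3 µM 2 genes passed an unadjusted p, beside 3.77% of all genes, and 0 passed the adjusted test in each fit that left out 1 sample. Between the doses 1 gene, PRC1, was called with over 1.5-fold required as well, beside 507 of all 15583 genes tested. When 1 sample was left out 2 to 4 were called, the 2 without 1 µM replicate 2 being CKAP5 and MAPRE1. KATNBL1 also did not pass between the doses by limma on FPKM (-0.41, adjusted p = 0.0711). The PRC1 log2 fold change at 1 µM ranged from -1.21 to -1.01 with 1 sample left out and from -1.15 to -0.71 over the other settings, the latter by limma on log2(FPKM + 0.5), a scale that compresses changes of low values. Of 95 genes in the 7 microtubule lists, 14 were called in the main test, 8 with limma on FPKM and 25 with the GC trend removed. With an unadjusted p 28 were called, and 2 with over 1.5-fold required. Over all 15617 genes tested, 17.6% were called in the main test, 14.1% with limma on FPKM and 5.51% with over 1.5-fold required. At an unadjusted p under 0.05, 4985 of the 15617 passed. No share over all genes is given with the GC trend removed or 1 sample left out. With 1 sample left out the number called in the lists was 6 to 18. It was 6 without DMSO replicate 3, 1 µM replicate 1 or 1 µM replicate 2, and 7 without 1 µM replicate 3. Those counts rest on fewer samples, and for the other settings the cause was not tested. Of the log2 fold changes, 5 uncalled ones of at most 0.06 changed sign. With 1 sample left out, the values ran from -0.01 to 0.07 for MAP1B, -0.05 to 0.05 for CKAP5 and -0.01 to 0.04 for CLASP1 at 0.3 µM, and from -0.02 to 0.14 for TBCA and -0.04 to 0.06 for STMN1 between the doses. With the length trend removed, CKAP5 and CLASP1 at 0.3 µM were at -0.01 and -0.0015 and STMN1 between the doses at -0.0049, and STMN1 was also at -0.00055 with RLE factors, -0.0032 with all samples in 1 fit and -0.04 with the GC trend removed. Samples with the same replicate number did not all deviate together, with correlations of -0.16 to 0.261 over 10825 genes. Between DMSO and 0.3 µM these were 0.261, 0.217 and 0.0744, while samples of different number had -0.226 to -0.00429. Between DMSO and 1 µM the same numbers gave -0.16, -0.111 and 0.0856, and between the doses -0.0598, -0.0903 and -0.0184. Whether the numbers pair the samples is therefore not settled, and the main fits used no block. With the replicate block 4, 0 and 4 of the 10 genes were called at 1 µM against DMSO, at 0.3 µM and between the doses. The shares of all genes called in these fits were 13.6%, 0.00634% and 11.3%. Of the lists, 8 genes were called with the block at 1 µM against DMSO, beside 13.6% of all genes. PRC1, with 46 to 148 counts a sample, is limited by its depth and by its shared exons.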
